A study of Mus musculus with 9 samples.

Results

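The 10 genes described here handle peroxide, superoxide and thiol oxidation in testis: Gpx4, Txnrd3, Txndc2, Txndc8, Nme8, Prdx4, Prdx5, Prdx6, Sod1 and Sod2. They are the rows of the deposited gene table with these symbols, 10 of 38674 genes, taken by name and not by their values, and all 10 had enough counts to be tested in each of the 3 comparisons. RNA was taken from testes without their tunica albuginea in 9 male C57BL/6 mice, 3 wild type (Pfn3+/+, WT), 3 heterozygous (Pfn3+/–, Het) and 3 homozygous for a disrupted Pfn3 gene (Pfn3–/–, KO). Profilin 3, the product of Pfn3, is an actin-binding protein of spermatids. The disrupted alleles are frameshift deletions made with Cas9 in zygotes, and the study kept 3 such lines. The study used sexually mature males, but the line and exact age of these animals are not given in the sources used here, and no treatment is named. Each library was a QuantSeq library, which reads near the 3′ end of polyadenylated transcripts, and the values are gene counts divided by a size factor for each animal, called normalized counts below.

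Developing sperm make hydrogen peroxide in their mitochondria, and their membranes are rich in unsaturated lipids that peroxides damage. Superoxide dismutases turn superoxide into hydrogen peroxide, peroxiredoxins and glutathione peroxidases reduce it to water, and thioredoxin and glutathione supply the electrons, recharged by reductases from NADPH. In spermatids the same thiol chemistry also builds structure, since disulfide bonds harden the fibrous sheath, the outer dense fibres and the mitochondrial capsule of the midpiece.

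None of the 10 genes was called different between any genotypes. A call needed a limma adjusted p below 0.05 together with a log2 fold change beyond 1.5 up or down, on log2(normalized count + 1). For KO versus WT, 0 of the 10 were called, where 0.0352% of 14223 genes were, and 1 of the 10 (Txnrd3) had an unadjusted p below 0.05, where 8.07% of all genes did. For Het versus WT, 0 of the 10 were called and 0 had an unadjusted p below 0.05, where 0% and 3.34% of 14216 genes did. For KO versus Het the counts were again 0 and 0, where 0.0558% and 3.56% of 14343 genes passed.

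The tests on recovered counts made no call among the 10 either. The DESeq2 Wald test called 0 of the 10 in each comparison, where it called 0.703%, 0.218% and 0.265% of all genes for KO versus WT, Het versus WT and KO versus Het. It put 1, 0 and 1 of the 10 below an unadjusted p of 0.05, each time Txnrd3, where 7.3%, 2.91% and 2.92% of all genes were. The edgeR quasi-likelihood test also called 0 of the 10, where it called 0.0352%, 0% and 0.0349% of all genes, and it put 1, 0 and 0 of the 10 below an unadjusted p of 0.05, where 7.57%, 2.93% and 3.26% of all genes were.

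**Figure D1:**
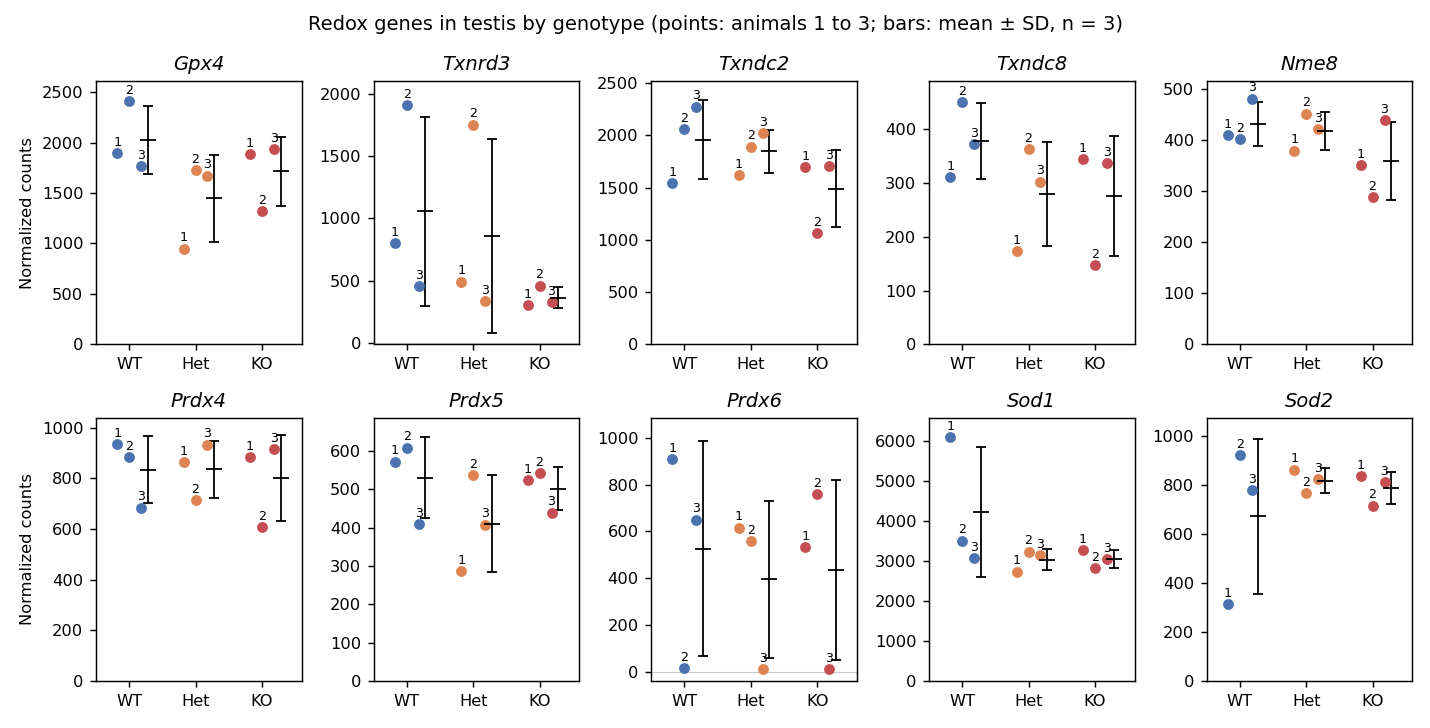
Normalized counts of the 10 redox genes (vertical axes from 0, linear) in the WT, Het and KO animals, with points numbered by replicate and black bars for the mean ± SD of 3 animals. Prdx6 is near 0 in 1 animal of each genotype, Txnrd3 is high in WT 2 and Het 2, and in WT 1 Sod1 is high and Sod2 low.

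Several animals stood apart over the whole table. Among genes with a median of at least 20 normalized counts in the other 8 animals, WT replicate 1 had no more than 3 reads in 3.78% and Het replicate 1 in 2.56%, where the other 7 animals had 0.221% to 1.02%. WT replicate 1 was also the highest of the 9 animals for 32.8%, and the lowest for 25.5%, of the 5851 genes averaging 100 normalized counts or more. KO replicate 2 was the lowest animal for 22.2% of these genes and Het replicate 1 for 16.7%. Reads counted on genes ran from 3375546 to 4287335. Pfn3 ranged from 373 to 592 normalized counts in WT, 136 to 339 in Het and 74.7 to 279 in KO, with no KO or Het animal reaching the lowest WT animal. The KO/WT log2 fold change of Pfn3 was −1.41 (SE 0.52, limma adjusted p = 0.610), so the targeted transcript was still counted in KO and did not pass the test. The spermatid gene Prm1 stood at 60182 to 112269 normalized counts, the Sertoli cell gene Amh, 1 of 6 Sertoli markers, was at or under 3 reads in all 9 animals, and 5 epididymis markers summed to 13.6 to 53.1, with Lcn5 and Adam7 at or under 3 reads in all 9.

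A library of transcript ends gives about 1 count per transcript, so levels of different genes are set side by side as normalized counts without division by length. The WT means ran from 4230.5 for Sod1 down through Gpx4, Txndc2, Txnrd3, Prdx4, Sod2, Prdx5, Prdx6 and Nme8 to 378 for Txndc8. By the mean of all 9 animals Sod1 ranked 92 in the table, Txndc2 289 and Gpx4 295. Each WT animal had more Sod1 than any had Gpx4, and for the other 8 pairs of neighbours in the WT order the ranges overlapped.

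Promoter windows from RefSeq (GRCm38.p6, 250 bases before to 50 after a start) were at hand for 9 of the 10 genes, 13 windows in all. Both strands were searched for the cyclic AMP response element TGACGTCA, bound by the spermatid activator CREM, for its shorter form TGACGT, which the full element holds on both strands, and for the antioxidant response element TGACNNNGC, through which NRF2 acts. The full element was in 0 of the 13 windows and in 1.79% of all 32851 windows. The short form was in windows of 2 of the 9 genes, Gpx4 and Sod1, and in those of 8.37% of all genes. The antioxidant element was in windows of 2 of the 9, Sod1 and Txndc2, and in those of 14.0% of all genes. These matches are printed because both elements are textbook entry points for spermatid and peroxide signals, in the gene's own orientation with the match in capitals. ACGTCA is TGACGT read on the other strand, and GCGTGGTCA matches TGACNNNGC on the other strand. A match describes letters only.
Gpx4, chr10:80053522-80053547, plus strand, short form: ccaataagagACGTCAgtgggcgtgc
Sod1, chr16:90220515-90220540, plus strand, short form: gactcggccgACGTCAcagttagaag
Sod1, chr16:90220696-90220724, plus strand, antioxidant element: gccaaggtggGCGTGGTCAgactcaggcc
Txndc2, chr17:65639941-65639969, minus strand, antioxidant element: ctttgaacctTGACCTAGCctagctgtgt

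Gpx4 (ENSMUSG00000075706, chromosome 10 of GRCm38, 80047166 to 80056439, plus strand) encodes the selenium-dependent peroxidase that reduces lipid peroxides within membranes and that, cross-linked, forms much of the sperm mitochondrial capsule. WT animals read 1894, 2414 and 1769.8 normalized counts, Het animals 949.5, 1725 and 1672, and KO animals 1888, 1321 and 1933. Each Het animal lay below each WT animal, by as little as 1725 to 1769.8, and KO overlapped with WT. No other gene of the 10 had Het and WT animals apart, and of all genes tested 6.49% were lower and 6.76% higher in Het without overlap. The Het/WT log2 fold change was −0.52 (SE 0.28, limma adjusted p = 0.779), and −0.24 once Het replicate 1, the lowest animal, was left out. For KO versus WT it was −0.25 (SE 0.22, limma adjusted p = 0.674), and −0.07 without KO replicate 2. The mitochondrial, cytosolic and nuclear forms of the enzyme share their 3′ part, so these libraries do not separate them. Of the 50-base stretches in the last 300 bases of Gpx4 transcripts, 65.1% also occur in another gene, chiefly the pseudogene Gpx4-ps2, and how reads with several matches were counted is not given in the sources used here.

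Txnrd3 (ENSMUSG00000000811, chromosome 6, 89643988 to 89675529, plus strand) encodes the thioredoxin-glutathione reductase of testis, a selenoprotein able to recharge both systems. Its normalized counts were 799, 1915 and 456 in WT, 490.4, 1755 and 331 in Het, and 299.8, 459 and 325 in KO. WT replicate 2 and Het replicate 2 stood far above the rest, and the KO animals lay together at the low end, with KO replicate 2 just above WT replicate 3. The WT mean was 1056 ± 763, the Het mean 859 ± 780.3 and the KO mean 361 ± 85.3 (SD, n = 3 each). The KO/WT log2 fold change was −1.32 (95% interval −2.59 to −0.04, limma unadjusted p = 0.0447, adjusted p = 0.610). It moved to −0.76 without WT replicate 2 and to −1.80 without WT replicate 3. The DESeq2 Wald test gave −1.53 (adjusted p = 0.308), and with all animals kept the alternatives gave adjusted p from 0.308 to 0.703. For KO versus Het the log2 fold change was −0.89 (SE 0.61, limma adjusted p = 0.973), and −0.18 without Het replicate 2.

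The spermatid thioredoxins varied less between animals. Txndc2 (ENSMUSG00000050612, chromosome 17, 65637507 to 65642168, minus strand) encodes a thioredoxin of the fibrous sheath. It read 1541, 2059.6 and 2277 normalized counts in WT, 1622, 1893 and 2024 in Het, and 1699.8, 1061 and 1709 in KO. KO replicate 2 was the lowest animal, and WT replicate 1 lay below the other KO animals. Its KO/WT log2 fold change was −0.41 (SE 0.26, limma adjusted p = 0.641), and −0.18 without KO replicate 2.

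Txndc8 (ENSMUSG00000038709, chromosome 4, 57984027 to 58009124, minus strand) encodes a thioredoxin of the spermatid Golgi and developing acrosome. It read 311, 451 and 373 normalized counts in WT, 173, 363 and 303 in Het, and 344, 147 and 337 in KO. Het replicate 1 and KO replicate 2 were low, and the other Het and KO animals lay within the WT range or just under it. Txndc8 had a KO/WT log2 fold change of −0.54 (SE 0.38, limma adjusted p = 0.645), and −0.13 without KO replicate 2. The Het/WT value was −0.48 (SE 0.33, limma adjusted p = 0.779), and −0.17 without Het replicate 1.

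Nme8 (ENSMUSG00000041138, chromosome 13, 19645078 to 19697794, minus strand) encodes a thioredoxin fused to nucleoside diphosphate kinase domains, found in the sperm tail. It read 409.8, 402 and 481 normalized counts in WT, 379, 452 and 421 in Het, and 350.4, 287 and 439 in KO. KO replicates 1 and 2 lay below every WT and Het animal, and KO replicate 3 did not. For KO versus WT the log2 fold change of Nme8 was −0.28 (SE 0.22, limma adjusted p = 0.658), and −0.13 without KO replicate 2.

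Prdx4 and Prdx5 are peroxiredoxins whose KO and WT means lay close together. Prdx4 (ENSMUSG00000025289, chromosome X, 155323918 to 155340754, minus strand), the enzyme of the endoplasmic reticulum, read 936, 885 and 685 normalized counts in WT, 865, 713 and 933 in Het, and 884, 608 and 916 in KO. All groups overlapped, with means of 835 ± 133, 837 ± 113 and 802 ± 169.6 (SD, n = 3 each). The KO/WT log2 fold change was −0.07, with a 95% interval from −0.64 to 0.50 (limma adjusted p = 0.920).

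Prdx5 (ENSMUSG00000024953, chromosome 19, 6906697 to 6910106, minus strand) works in mitochondria, peroxisomes and cytosol. It read 572, 609 and 409 normalized counts in WT, 286, 537 and 407 in Het, and 523, 543 and 439 in KO. Het replicate 1 was the lowest animal, and the KO animals lay inside the WT range. Its KO/WT log2 fold change was −0.06 (95% interval −0.60 to 0.47, limma adjusted p = 0.918). The gene overlaps Trmt112 on the opposite strand over 409 bases, and Trmt112 read 6.19 to 213 normalized counts. Of the 443 stretches in the last 300 bases of Prdx5 transcripts, searched as for Gpx4, 0 also occur in another gene, Trmt112 included. The overlap thus lay outside those last bases, and these libraries read near transcript ends. Whether counting used strand is not given in the sources used here, so any reads of the overlap itself could belong to either gene.

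Prdx6 (ENSMUSG00000026701, chromosome 1, 161240112 to 161251219, minus strand) encodes a peroxiredoxin that works with glutathione and also cuts phospholipids. Its animals fell into a high and a low level that cut across genotype. It read 910.0, 16.4 and 649.8 normalized counts in WT, 616, 559 and 9.52 in Het, and 533, 759 and 8.94 in KO. WT replicate 2, Het replicate 3 and KO replicate 3 were low, and the other 6 animals lay between 533 and 910.0. The highest animal was 55.5 times the lowest in WT, 64.7 times in Het and 85.0 times in KO. Of those 5851 better expressed genes, 92 (1.57%) differed more than 10-fold between animals in each of the 3 genotypes. Prdx6 had a KO/WT log2 fold change of −0.45, with a 95% interval from −5.73 to 4.83 (limma adjusted p = 0.946), too wide to place a difference in either direction.

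The close relative Prdx6b read 2331, 1854 and 1964 normalized counts in the animals low for Prdx6, within its range of 1587 to 2788 over all 9. Of the 50-base stretches in the last 300 bases of Prdx6 transcripts, 0.19% occur in other genes. The gene with log2 levels most like those of Prdx6 was Wac, an adaptor in histone modification and transcription. Wac read 134, 6.75 and 297 normalized counts in WT, 177, 290.5 and 4.23 in Het, and 324, 167 and 11.6 in KO, low in the same 3 animals. Of the 5851 genes, 2 (0.0342%), Prdx6 and Wac, lay more than 10-fold below both other animals of the genotype in WT replicate 2, Het replicate 3 and KO replicate 3. Wac was picked for its likeness among 8538 genes, so the likeness carries no test.

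**Figure D2:**
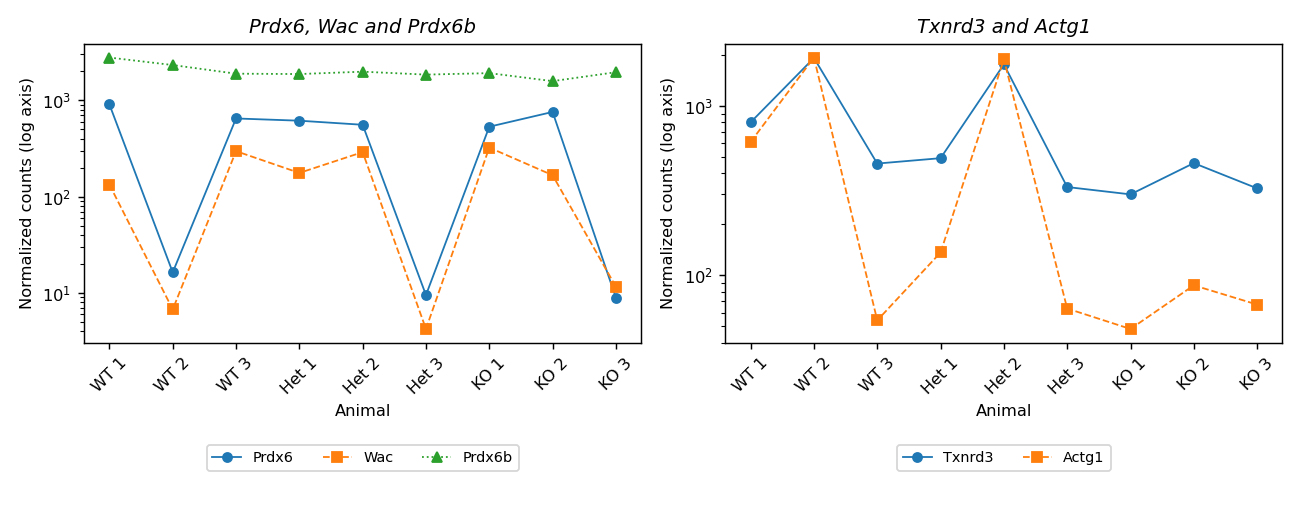
Normalized counts on a log axis in each of the 9 animals for Prdx6, Wac and Prdx6b (left) and for Txnrd3 and Actg1 (right), with lines joining animals only to guide the eye. Prdx6 and Wac are low in WT 2, Het 3 and KO 3 while Prdx6b stays between 1587 and 2788, and Txnrd3 and Actg1 peak in WT 2 and Het 2.

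Both superoxide dismutases had WT replicate 1, the animal that stood apart over the whole table, far from the rest. Sod1 (ENSMUSG00000022982, chromosome 16, 90220754 to 90226329, plus strand), the cytosolic copper-zinc enzyme, read 6104, 3515 and 3072 normalized counts in WT, 2736, 3242 and 3143 in Het, and 3284, 2827 and 3049 in KO. Apart from WT replicate 1 all animals lay between 2736 and 3515. Sod1 had a KO/WT log2 fold change of −0.41 (SE 0.28, limma adjusted p = 0.643), and −0.11 without WT replicate 1. For KO versus Het, which does not use that animal, it was 0.01 with a 95% interval from −0.30 to 0.31. Sod1 overlaps Scaf4 on the opposite strand over 650 bases, and Scaf4 read 43.8 to 96.6 normalized counts, highest in WT replicate 1 too.

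Sod2 (ENSMUSG00000006818, chromosome 17, 13006846 to 13040063, plus strand), the mitochondrial manganese enzyme, was low in the same animal. It read 314, 924 and 779 normalized counts in WT, 865, 766 and 827 in Het, and 838, 717 and 811 in KO. Outside WT replicate 1 the animals lay between 717 and 924. The KO/WT log2 fold change was 0.37 (SE 0.42, limma adjusted p = 0.727), and it turned to −0.11 without WT replicate 1. The Het/WT value of 0.42 (SE 0.42, limma adjusted p = 0.789) turned to −0.05 in the same way. For KO versus Het it was −0.06 with a 95% interval from −0.38 to 0.27.

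Across the 10 genes the median KO/WT log2 fold change was −0.34, beside 0.02 for all genes tested, and 9 of the 10 were below 0, beside 48.6% of all genes. That median was −0.13 without KO replicate 2 and −0.20 without WT replicate 1. For 0 of the 10 did KO and WT animals lie apart, where 9.41% of all genes were higher and 10.5% lower in KO without overlap. The Het/WT median was −0.40 with 8 genes below 0, beside 49.5% of all genes, and it ran from −0.54 to −0.11 when 1 animal at a time was left out. The KO/Het median was −0.05 with 6 genes below 0, beside 50.3% of all genes, and 0 of the 10 had KO and Het animals apart, where 5.12% of all genes were higher and 4.9% lower. The same WT animals serve in both comparisons with WT. In each comparison the 95% interval stayed within the fold change limits for 8 of the 10 genes, the exceptions being Txnrd3 and Prdx6.

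**Figure D3:**
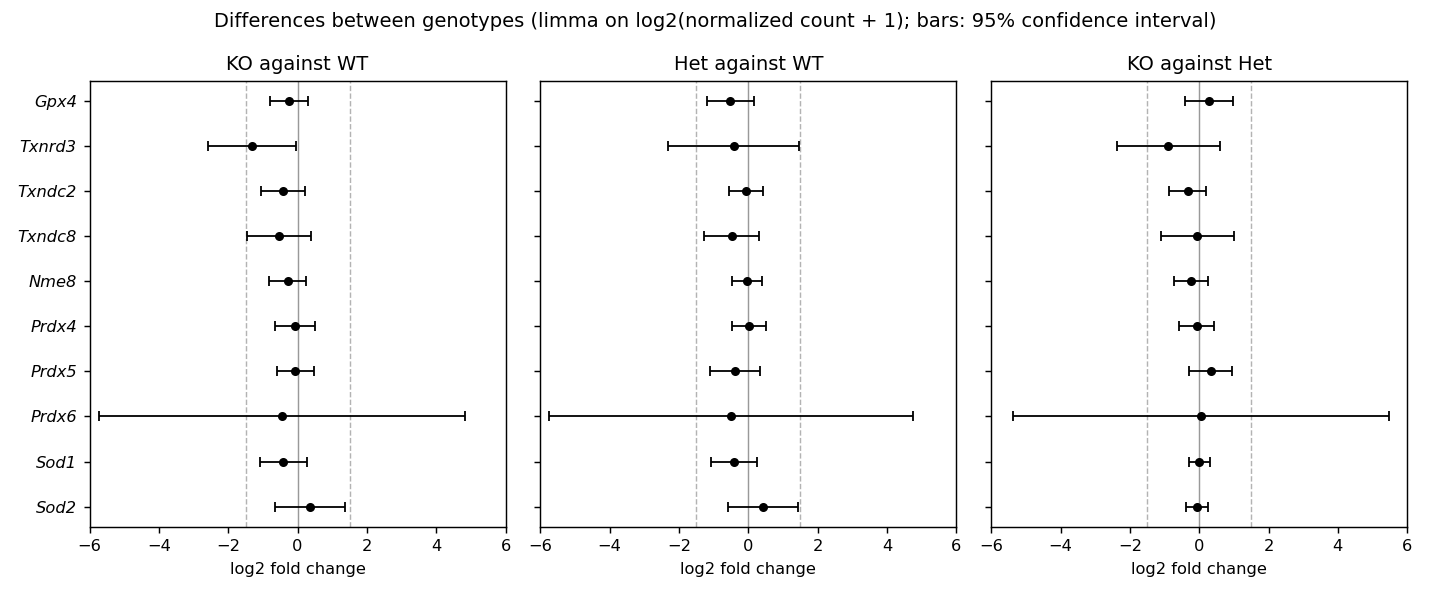
Log2 fold changes of the 10 redox genes (horizontal axes) in the 3 comparisons, with bars for the 95% confidence interval from limma and dashed lines at 1.5 up and down. For 8 of the 10 genes in each comparison the interval stays between the dashed lines, and the intervals of Prdx6 cross both.

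Marker sums of several cell types differed between the animals. The elongating spermatid markers Tnp1, Tnp2, Prm1, Prm2 and Odf1 summed to 239227 to 254062 normalized counts in WT, 183381 to 220848 in Het and 126506 to 203742 in KO. KO replicate 2 had the lowest sum of the 9 animals and the lowest Txndc2, Txndc8, Nme8 and Prdx4, 4 of the 10 genes beside 22.2% of the better expressed genes. Het replicate 1 had the next lowest sum, the lowest Gpx4, Prdx5 and Sod1, 3 of the 10 beside 16.7%, and the next lowest Txndc8. WT replicate 1 had the next lowest Txndc2 but the highest round spermatid sum. The 5 round spermatid markers summed to 3793 to 4715 in WT, 3303 to 4287 in Het and 2301 to 3267 in KO, and 4 spermatocyte markers to 3735 to 4767, 3778 to 6065 and 5394 to 6410.2. The 6 Sertoli cell markers summed to 586 to 682 in WT, 878 to 952 in Het and 819 to 1457 in KO. By this sum each Het and KO animal lay above each WT animal, KO replicate 2 highest. On the mean log2(normalized count + 1) of the same markers, each KO animal still lay above each WT animal, but Het overlapped with WT. Het replicates 1 and 3 stood at 4.6952 and 5.1134 there, below WT replicate 2 at 5.23. KO replicate 2, at 5.5956, was the lowest KO animal on that scale and lay below Het replicate 2 at 5.98. In bulk tissue, fewer cells of a type and less RNA per cell cannot be told apart, and the part of these markers in the results was not tested. The 4 Leydig cell markers in the table summed to 1933 to 3402 in WT, 1337 to 2109 in Het and 1749.6 to 2645 in KO, highest in WT replicate 1. By their mean log2(normalized count + 1), KO replicate 2 was highest, at 8.89 beside 8.58 in WT replicate 1. The part of the Leydig markers was not tested either.

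Relative to these elongating spermatid markers, a ratio chosen after the values were seen, Txndc2 stood at 6.37, 8.11 and 9.52 per 1000 marker counts in WT and at 8.72, 8.39 and 8.39 in KO. Txndc8 stood at 1.28, 1.78 and 1.56 in WT and at 1.77, 1.16 and 1.65 in KO. On this scale the KO mean was 1.06 times the WT mean for Txndc2, 0.992 times for Txndc8, 1.18 times for Nme8 and 1.20 times for Gpx4, where the plain normalized counts gave 0.760, 0.730, 0.833 and 0.846. For Txnrd3 it was 0.530 times, where the plain counts gave 0.342. Prdx4 and Sod2 were higher in each KO animal than in each WT animal on this scale, Prdx4 at 4.50 to 4.80 beside 2.86 to 3.87 and Sod2 at 3.98 to 5.67, beside a highest WT animal at 3.64. The marker sum that divides them was itself lower in each KO animal, and on this scale 31.8% of the 14223 genes tested were higher and 1.44% lower in KO without overlap, so that 2 of 10 is no more than the background. Such a ratio shows only that quantities of a library changed unequally.

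**Figure D4:**
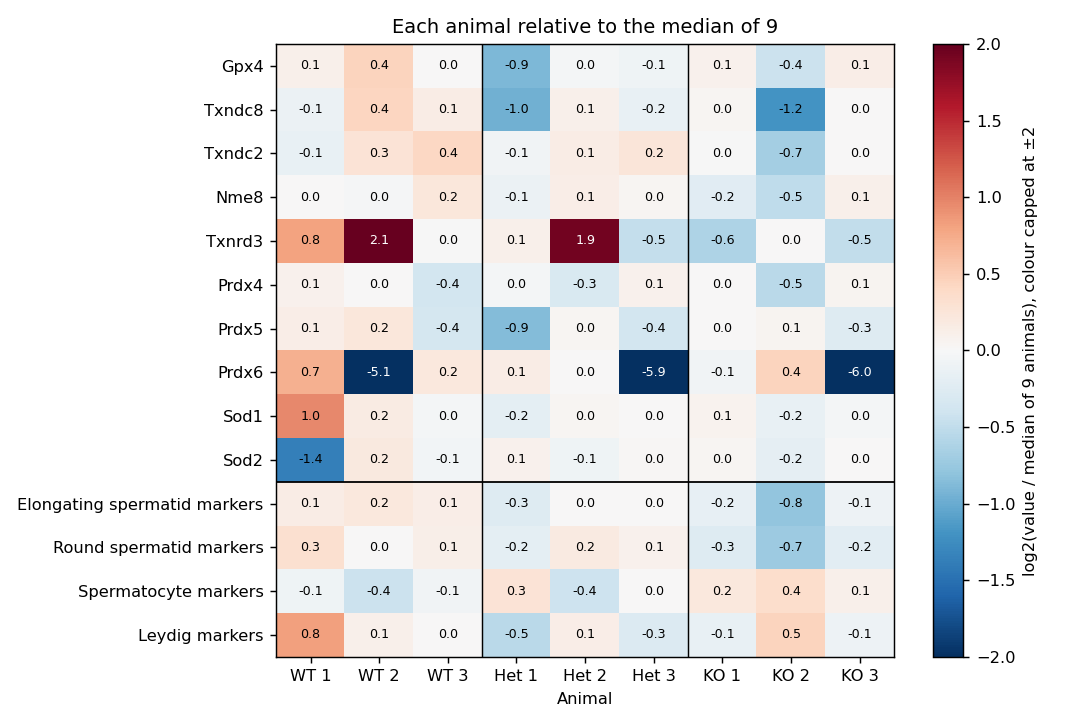
Level of each redox gene and summed level of 4 marker lists (rows) in the 9 animals (columns), as log2 of the value over the row's median, red above and blue below it, with the colour capped at 2 up and down. KO 2 is blue for Txndc2, Txndc8, Nme8 and both spermatid lists, Het 1 for Gpx4, Txndc8 and Prdx5, and the strongest cells belong to Prdx6 and Txnrd3.

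The most alike of 8538 genes with a mean of at least 50 was found by Pearson's r of log2(normalized count + 1) over the 9 animals, which share their libraries. As the highest of many, these values are a description. Txndc2 ran most like Prm1, a sperm protamine (r = 0.97, Spearman's rho = 0.97), and Nme8 most like Nme5, a relative from the same kinase family (r = 0.97, rho = 0.93). Txndc8 ran most like 1700015G11Rik (r = 0.99, rho = 0.93) and Gpx4 most like Enkd1 (r = 0.95, rho = 0.87). Txnrd3 ran most like Actg1, which encodes cytoplasmic gamma-actin (r = 0.97, rho = 0.93) and read 1926 normalized counts in WT replicate 2 and 1881 in Het replicate 2 beside 48.1 to 612 in the other 7 animals. Prdx4 was most like Lmbrd2 (r = 0.96, rho = 0.87) and Prdx6 most like Wac (r = 0.96, rho = 0.42). Sod1 was most like Eif3k (r = 0.99, rho = 1.0), high in WT replicate 1 as well.

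The rest of the redox network was read from 6 lists of 72 further genes, 70 of them in the table. For KO versus WT 64 were tested and limma called 0, with 5 at an unadjusted p below 0.05, where 0.0352% and 8.07% of all genes passed, and DESeq2 also called 0. For Het versus WT 0 of 64 were called, with 0 at an unadjusted p below 0.05 beside 3.34% of all genes, and for KO versus Het 0 of 62, with 1 beside 3.56%. In 8 of the 64 each KO animal lay above each WT animal, beside 9.41% of all genes, and in 2 below, beside 10.5%. Median KO/WT log2 fold changes ran from −0.23 for glutathione enzymes to 0.27 for selenoprotein synthesis.

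Of the glutathione enzymes 19 were tested, 9 above and 10 below 0. Gclc, the catalytic subunit of the enzyme that limits glutathione synthesis, read 84.2, 91.6 and 103 normalized counts in WT, 187, 105 and 128 in Het, and 134, 160.6 and 152 in KO. KO and WT animals did not overlap, and the log2 fold change was 0.67 (SE 0.20, limma unadjusted p = 0.0135, adjusted p = 0.610). Gpx8, a peroxidase of the endoplasmic reticulum, read 13.5 to 20.3 in WT and 23.2 to 35.7 in KO (log2 fold change 0.58, limma adjusted p = 0.632). Lower without overlap, and named after their values were seen, were Glrx2, a mitochondrial glutaredoxin, and Gsto1, an omega-class glutathione transferase. Glrx2 read 885 to 909.5 in WT and 362 to 868 in KO (log2 fold change −0.48, limma adjusted p = 0.649), and Gsto1 read 22.2 to 32.2 in WT and 19.7 to 20.3 in KO (log2 fold change −0.46, limma adjusted p = 0.637). Of the further peroxiredoxins and their partners 8 were tested, 3 above and 5 below 0. Among them Prdx1, a cytosolic peroxiredoxin, read 665 to 796 in WT and 804 to 973 in KO (log2 fold change 0.25, limma adjusted p = 0.643). The thioredoxin list had 10 tested genes, 6 above and 4 below 0, and the NRF2 list 7, 3 above and 4 below 0, and in neither list did KO and WT animals lie apart for any gene.

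Gpx4 and Txnrd3 need the machinery that inserts selenocysteine at UGA codons, and of its 8 tested genes 7 were above and 1 below 0. Secisbp2l, a relative of the protein that binds the selenocysteine insertion element, read 11.1, 36.7 and 25.1 normalized counts in WT, 63.3, 34.5 and 42.3 in Het, and 55.8, 95.8 and 68.8 in KO. KO and WT animals did not overlap (log2 fold change 1.67, SE 0.47, limma unadjusted p = 0.0115, adjusted p = 0.610). The log2 fold change became 1.21 without WT replicate 1, under the limit of 1.5. Sepsecs, which completes selenocysteine on its transfer RNA, read 17.3 to 41.5 in WT and 47.4 to 62.7 in KO, with a log2 fold change of 0.82 (limma adjusted p = 0.613) that became 0.44 without WT replicate 1. Of 12 genes in the list for NADPH supply 8 were above and 4 below 0. Me2, a mitochondrial malic enzyme, read 23.2 to 29.9 normalized counts in WT, 26.5 to 42.8 in Het and 42.0 to 70.6 in KO (log2 fold change 0.98, limma unadjusted p = 0.0133, adjusted p = 0.610). Idh1, the cytosolic isocitrate dehydrogenase, read 49.5, 158 and 149 in WT and 183 to 233 in KO, with a log2 fold change of 0.95 (limma adjusted p = 0.615) that became 0.41 without WT replicate 1.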

How the data were processed

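QuantSeq 3′ libraries of testis RNA from 3 WT, 3 Het and 3 KO samples were used. The labels number the samples of a genotype without naming separate animals, so p-values measure the spread between these samples, called animals here. Per the labels' processing notes and the study's methods, reads were trimmed with Trim Galore 0.4.5, aligned to GRCm38 with HISAT2 2.1 and counted with StringTie 1.3.3, whose script derives counts from coverage and a set read length, and pseudogenes were left out. The deposited signal is a gene count over the animal's DESeq2 size factor. In every animal 100% of nonzero values were whole multiples (tolerance 0.001) of 1 step, so whole counts, called reads here, were recovered, and their size factors differed from a DESeq2 recomputation by at most 0.0747%. A floor of 3 reads, 2.58 to 3.71 normalized counts, covers counting error only.

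Genotypes were compared in pairs with limma 3.58.1 (R 4.3.3, trended eBayes, Benjamini-Hochberg over all genes tested) on log2(value + 1), which understates changes of low genes, for genes reaching 10 in 3 or more of the animals compared. Intervals are 95%. Alternatives were DESeq2 1.42.0 and edgeR 4.0.16 on recovered counts, TMM factors, no filter, pseudocounts of 0.5 and 5, all 9 animals in 1 fit, a replicate block, no fold change cutoff, and leaving out animals. The fits were also run on simulated counts with a common spread for all genes and no animal standing apart, unlike these data. Replicates differed by more than 2 counting standard deviations in 31.4% to 64.8% of genes, so none repeated another. The 10 genes, the lists and the tests were chosen with earlier results of these data known. Beyond the 10, the genes named are Pfn3, the most alike gene (not reported here for Prdx5 and Sod2), and per list up to 2 with the largest KO/WT change among those with separate KO and WT animals. Insl3, Tesmin, Gclm and Mafg were not analysed here. Tables and figures used Python 3.11.15, pandas 2.3.3 and matplotlib 3.10.9.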

Additional observations from a re-analysis of the deposited data

How the results depend on the processing

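Under each alternative and with any animal left out, 0 of the 10 redox genes were called in any comparison, except that without Het 1 and KO 2 only 9 were tested for KO versus Het, Prdx6 falling under the filter, and 0 called. All changes of direction came from leaving out animals. Leaving out 1 animal at a time moved the KO/WT log2 fold change from −0.20 to 0.12 for Prdx4, −0.24 to 0.0454 for Prdx5, −2.27 to 1.55 for Prdx6 and −0.11 to 0.67 for Sod2. The Het/WT value moved from −1.14 to 0.13 for Txnrd3, −0.24 to 0.0454 for Txndc2, −0.10 to 0.0355 for Nme8, −0.13 to 0.12 for Prdx4, −2.32 to 1.43 for Prdx6 and −0.0527 to 0.72 for Sod2. The KO/Het value moved from −0.00765 to 0.45 for Gpx4, −0.36 to 0.35 for Txndc8, −0.19 to 0.11 for Prdx4, −1.88 to 2.05 for Prdx6, −0.0666 to 0.0617 for Sod1 and −0.10 to 0.0117 for Sod2. Leaving out pairs of WT 1, Het 1 and KO 2, chosen after seeing the data as often the highest or lowest animals, also turned some values. Without WT 1 and KO 2, Prdx4 was 0.21 and Sod2 −0.0410, without WT 1 and Het 1, Sod2 was −0.0924, and without Het 1 and KO 2, Txndc8 was 0.0390, Prdx4 0.14, Sod1 −0.0123 and Sod2 0.0514.

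Counts over all genes moved more. For KO versus WT 5 genes were called, with 100 by DESeq2, 3 with all 9 animals in 1 fit, 57 without WT 1 and KO 2, and 0 to 49 with 1 animal left out (49 without WT replicate 1). For Het versus WT 0 were called, with 31 by DESeq2, 1 with TMM factors, 3 with no filter, 2 with a pseudocount of 5, 3 with all 9 animals and 0 to 3 with 1 animal left out. For KO versus Het 8 were called, with 38 by DESeq2, 5 by edgeR, 4 with all 9 animals, 0 without Het 1 and KO 2 (799 at an unadjusted p below 0.05), and 0 to 39 with 1 animal left out (39 without Het replicate 2). The cause was not tested.

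Deviations of same-numbered animals correlated from −0.187 to 0.267 over 8539 genes, and those of differently numbered animals from −0.318 to 0.265. With 3 animals per genotype, these values do not settle whether replicate numbers pair the animals. With the replicate block limma called 0 genes for KO versus WT, Het versus WT and KO versus Het, with 794, 322 and 403 at an unadjusted p below 0.05, and 0 of the 10 redox genes. Txnrd3 under the block had a KO/WT value of −1.32 (adjusted p = 0.703).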

Other observations

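Other redox genes also had levels far apart between animals of a genotype, and the examples here were chosen after their values were seen. Gsto2, an omega-class glutathione transferase, read 53.2 normalized counts in WT replicate 1 and 61.4 in Het replicate 1, beside 1024 to 1444 in the other 7 animals. Nqo2, a quinone reductase, read 3.71 and 10.4 in the same animals and 94.8 to 232 in the others. Hmox2, a heme oxygenase, read 168 in WT replicate 1, 48.2 in Het replicate 1 and 55.1 in KO replicate 2, beside 866 to 2263 in the other 6. Txnip, an inhibitor of thioredoxin, read 179.6 to 260.2 in WT replicates 2 and 3, Het replicate 2 and KO replicate 1, and 4.72 to 23.3 in the other 5. Gpx1, a cytosolic glutathione peroxidase, read 6.19 to 12.7 in WT replicate 1, Het replicate 3 and KO replicates 2 and 3, and 119 to 194 in the other 5.

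Txndc9, a relative of the thioredoxins, read 61.9 to 118 normalized counts in 7 animals and 358 and 547 in KO replicates 2 and 3. Catalase (Cat) and Prdx3, the mitochondrial peroxiredoxin, were at 0 in WT replicate 1, with 32.6 to 72.6 and 22.2 to 65.2 in the other 8 animals.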
